A study of Saccharomyces cerevisiae with 142 samples.

Results

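Mitochondrial ribosomal protein genes were taken as every gene of the array whose symbol begins with MRPL or MRPS, or is MRP or RSM followed by a number, and which has a probe set named for that gene alone. The rule found 66 genes among the 5449 genes measured, each with 1 probe set, so that no choice between probe sets was needed. The study followed budding yeast, Saccharomyces cerevisiae, through synchronous time courses on Affymetrix arrays, in dividing cells and in mutants of the cell cycle. It comprised 142 arrays in 9 time courses and 6 groups. All strains were of the BF264-15D background.

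The dividing controls at 30 °C were wild type BF264-15DU MATa bar1 cells, with 28 arrays in 2 courses. The cyclin mutant, with 30 arrays in 2 courses, had all 6 B-type cyclin genes disrupted, clb1::URA3 and clb2::LEU2 for the main mitotic pair, clb3::TRP1 and clb4::HIS2 for the next, and clb5::ARG4 and clb6::APE1 for the pair that acts first, and carried GAL1-CLB1:LEU2, a copy of CLB1 driven by the galactose promoter, and its label does not list bar1. The cdc20 group, with 32 arrays in 2 courses, had the gene for the anaphase activator disrupted (cdc20::LEU2) and a galactose-driven copy, together with CFP-TUB1::URA3 and bar1. Cells of these 3 groups were separated by size through elutriation and followed at 30 °C in rich dextrose medium with 1 M sorbitol. A wild type MATa bar1 culture grown at 25 °C was elutriated and followed at 37 °C in rich medium in 1 course of 15 arrays. The temperature-sensitive strains cdc14-3 and cdc15-2, both MATa bar1, lack mitotic exit functions at 37 °C. They were arrested with alpha-factor at 25 °C, released at 37 °C in medium with 2% dextrose, and followed in 1 course each, of 21 and 16 arrays. Nothing in the labels states that the numbered courses of a group came from separate cultures, so p-values over courses measure the spread between these courses only.

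Yeast mitochondria keep their own ribosomes, which make the few respiratory chain and ATP synthase subunits encoded by mitochondrial DNA. Nearly all proteins of these ribosomes are encoded in the nucleus, made in the cytosol and imported, and their mRNAs are a classical set of transcripts bound by the RNA-binding protein Puf3. They are known to be regulated apart from the proteins of the cytosolic ribosome. Of the 66 genes, 37 encode proteins of the large subunit and 28 proteins of the small subunit. The remaining gene, MRP8, was named for the mitochondrial ribosome but is not counted as a subunit today. By the standard ribosomal names in the RefSeq gene table, 27 proteins belong to families found in all ribosomes, 13 to families shared with bacteria, and 24 to families particular to mitochondria. RSM22, a methyltransferase-like protein of the small subunit, has no such name there. The genes lay on 14 chromosomes, with at most 12 on any of them (chromosome IV), and MRPS12 and RSM19 on chromosome XIV were the only neighbouring pair.

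Some properties of the arrays bear on all results. Medians of the 142 arrays lay between 1056 and 1362 on the linear intensity scale. The columns of wild type 30 °C replicate 2 correlated with replicate 1 at r = 0.0461 across probe sets as deposited and at r = 0.996 after being moved up by 1 row, so the moved values were used. On the log2 scale, the a-factor genes MFA1 and MFA2 had medians of at least 10.50 in every course, and the a-cell receptor gene STE2 at least 11.93. The alpha-cell receptor gene STE3 had medians of at most 7.76. Other alpha-cell genes were not all low, with medians of 6.98 to 8.3 for MF(ALPHA)1, 7.08 to 9.12 for MF(ALPHA)2 and 8.96 to 10.65 for SAG1. In each course the alpha-cell genes had lower medians than MFA1, MFA2 and STE2, the order for cells of mating type a. In the cyclin mutant courses CLB2, CLB3 and CLB4 had medians of 7.03 and 7.05, 6.77 and 6.68, and 7.48 and 7.66, against at least 9.39 in every other course. CLB1, which the strain carries under the galactose promoter, was at 10.82 and 10.90, and CLB5 and CLB6 at 10.83 and 10.34 and at 8.97 and 9.59. CDC20 was at 8.95 and 8.97 in the cdc20 courses and at 9.32 and 9.51 in 30 °C wild type. Whether these probe sets lie in the disrupted parts is not known here, so they check the strains only in part. BAR1 had a median of 9.88 and 9.94 in the cyclin mutant courses and of 6.51 to 7.36 in the other courses. The difference between the 3′ and 5′ control probe sets of TDH1, a measure of RNA integrity and labelling, averaged 1.00 ± 0.28 (SD, 21 arrays) in cdc14-3 and 2.98 ± 0.52 (SD, 14 arrays) in cdc20 replicate 1, the lowest and the highest of the courses. The same difference for ACT1 averaged 0.41 to 0.58 in the 9 courses. Temperature, medium, RNA preparation and array series go with the group, as does method of synchrony for cdc14-3 and cdc15-2. Their parts in a difference between the 30 °C groups and the 37 °C groups cannot be told apart. The 37 °C wild type course was elutriated, as were all 30 °C courses.

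Mitochondrial ribosomal protein genes varied little within most courses. A gene was called as changing over time when a smooth curve (a spline with 5 degrees of freedom, an intercept per course) passed limma's F-test at an adjusted p of 0.05 over all 5449 genes and its fitted values spanned 1 or more log2 units. Arrays of a course are not replicate cultures, so p-values over arrays, here and for other fitted curves, measure scatter around the curve only. By this rule 1 of the 66 genes changed in 30 °C wild type, where 36.0% of all genes did. In 37 °C wild type 3 of 66 changed, against 32.5% of all genes, and in the cyclin mutant 2 of 66, against 37.4%. The count was highest in cdc20, with 14 of 66 against 56.1% of all genes. In cdc14-3 and cdc15-2 none of the 66 passed, where 22.7% and 18.9% of all genes did. The count of 0 came from the minimum range: 44 and 37 of the 66 passed the F-test alone in cdc14-3 and cdc15-2. At an adjusted p of 0.05 with no minimum range, 49 passed in 30 °C wild type, 39 in 37 °C wild type, 59 in the cyclin mutant and 66 in cdc20. In that looser count the background was 88.3%, 76.3%, 93.8% and 96.0% in those groups, and 75.5% and 69.5% in cdc14-3 and cdc15-2. With a minimum of 1.5-fold 7, 23, 11, 48, 6 and 7 members passed in 30 °C wild type, 37 °C wild type, the cyclin mutant, cdc20, cdc14-3 and cdc15-2, against 60.0%, 60.2%, 66.1%, 81.8%, 44.9% and 40.2% of all genes. In each of the 6 groups and under each minimum except none in cdc20, the share of members was below that of all genes. The median fitted range of the 66 was 0.36, or 1.28-fold, in 30 °C wild type, where it was 0.74 for all genes. It was 0.49 against 0.73 in 37 °C wild type, 0.41 against 0.80 in the cyclin mutant, 0.76 against 1.10 in cdc20, 0.34 against 0.58 in cdc14-3 and 0.30 against 0.55 in cdc15-2. Large and small subunit genes had close median ranges, for example 0.36 and 0.34 in 30 °C wild type, and 0.75 and 0.75 in cdc20. Of the 66, 50 changed in none of the 6 groups, 14 in 1 group, 1 (MRP4) in 2 groups and 1 (MRP8) in 4 groups.

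**Figure D1:**
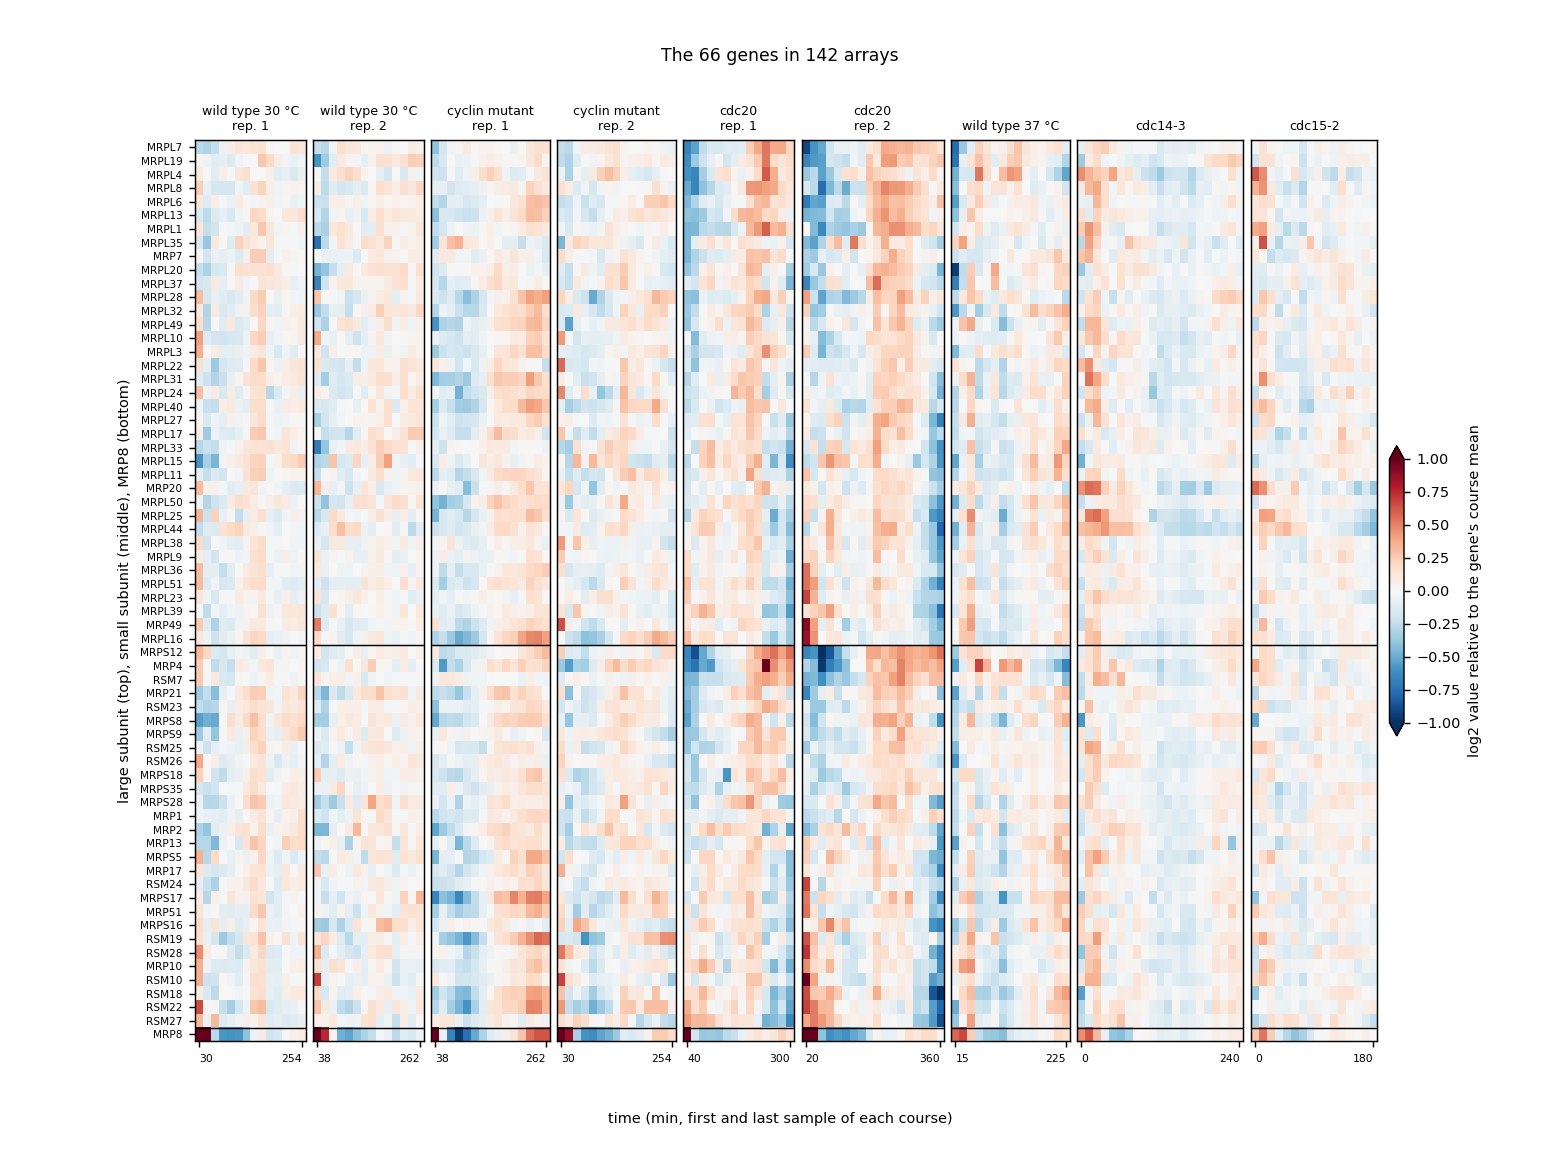
Log2 value of each of the 66 genes (vertical axis, by subunit, ordered within a subunit by the late minus early difference in cdc20) relative to the gene's mean in the course, in the 142 arrays in order of time (min, horizontal axis), 1 panel per course. Colour strength is largest for MRP8 at the start of the 30 °C courses and, among the other genes, in the cdc20 courses.

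Genes of cytosolic ribosome assembly moved far more than either set of ribosomal protein genes. Of 54 such factors, which are nucleolar and nuclear proteins needed to build cytosolic ribosomes, 51 changed in 30 °C wild type, 53 in 37 °C wild type, 50 in the cyclin mutant, 53 in cdc20, 46 in cdc14-3 and 18 in cdc15-2. Of 128 cytosolic ribosomal protein genes, 3, 37, 5, 12, 1 and 2 changed in the same order, and of 37 genes of the respiratory chain and ATP synthase 3, 6, 2, 9, 4 and 4. No member was called periodic by a cosine test at the group's own period with a peak-to-trough of at least 1.5-fold, other than MRP8 in 30 °C wild type (period of 110 min). That test called 13.0% of all genes in 30 °C wild type, and MRP8 was called neither without replicate 1 nor without replicate 2. In the cyclin mutant, cdc20 and cdc15-2 it called 0 of 66 members and 9.52%, 4.04% and 6.04% of all genes, and in 37 °C wild type and cdc14-3 it called no gene (0%). Without a minimum amplitude 17 members passed its adjusted p in 30 °C wild type, 29 in the cyclin mutant, 1 in cdc20 and 7 in cdc15-2, against 38.8%, 35.2%, 7.45% and 15.4% of all genes, and none passed in the other groups (0%). The 29 of the cyclin mutant are a larger share than that of all genes, unlike the counts of the other 3 groups. At an unadjusted p of 0.05 21, 39, 5 and 21 passed in these groups, against 56.2%, 47.1%, 28.6% and 38.8% of all genes, and 3 and 2 in 37 °C wild type and cdc14-3, against 9.60% and 18.4%.

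The shared part of the curves was small, and its timing differed from that of the assembly factors of the cytosolic ribosome. In 30 °C wild type the mean of the 65 genes without MRP8 was lowest at 46 and 54 min in replicates 1 and 2 and highest at 158 and 166 min. Between these arrays 62 and 61 of the 65 were higher at the later time, with medians of 0.34 and 0.25. Of all 5449 genes 3012 and 2860 were. The mean of the ribosome assembly factors was lowest at 30 and 38 min and highest at 62 and 70 min, 2.12 and 1.90 apart, and their median differed by 0.12 and -0.18 between the times at which the members were lowest and highest. In the cyclin mutant the courses differed: the members' mean was lowest at 38 min and highest at 230 min in replicate 1, 0.39 apart, and lowest at 94 min and highest at 158 min in replicate 2, 0.25 apart. In replicate 1 60 of 65 were higher at 230 than at 86 min, with a median of 0.38, while 54 of 54 assembly factors were lower, with a median of -0.87. In replicate 2 59 of 65 were higher at 158 than at 94 min, with a median of 0.22. Over these steps 2518 and 2673 of all 5449 genes were higher in replicates 1 and 2. In cdc20 62 and 60 of 65 were higher at 200 than at 60 min, with medians of 0.41 and 0.38, and 60 and 60 of 65 were lower at 300 than at 200 min, with medians of -0.51 and -0.21. Of all 5449 genes 2721 and 3085 were higher over the first step and 2955 and 3309 lower over the second. The medians of all genes in replicate 2 were 0.09 and -0.08. These times were chosen after the curves were seen, they compare single arrays, and no test was made of them.

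**Figure D2:**
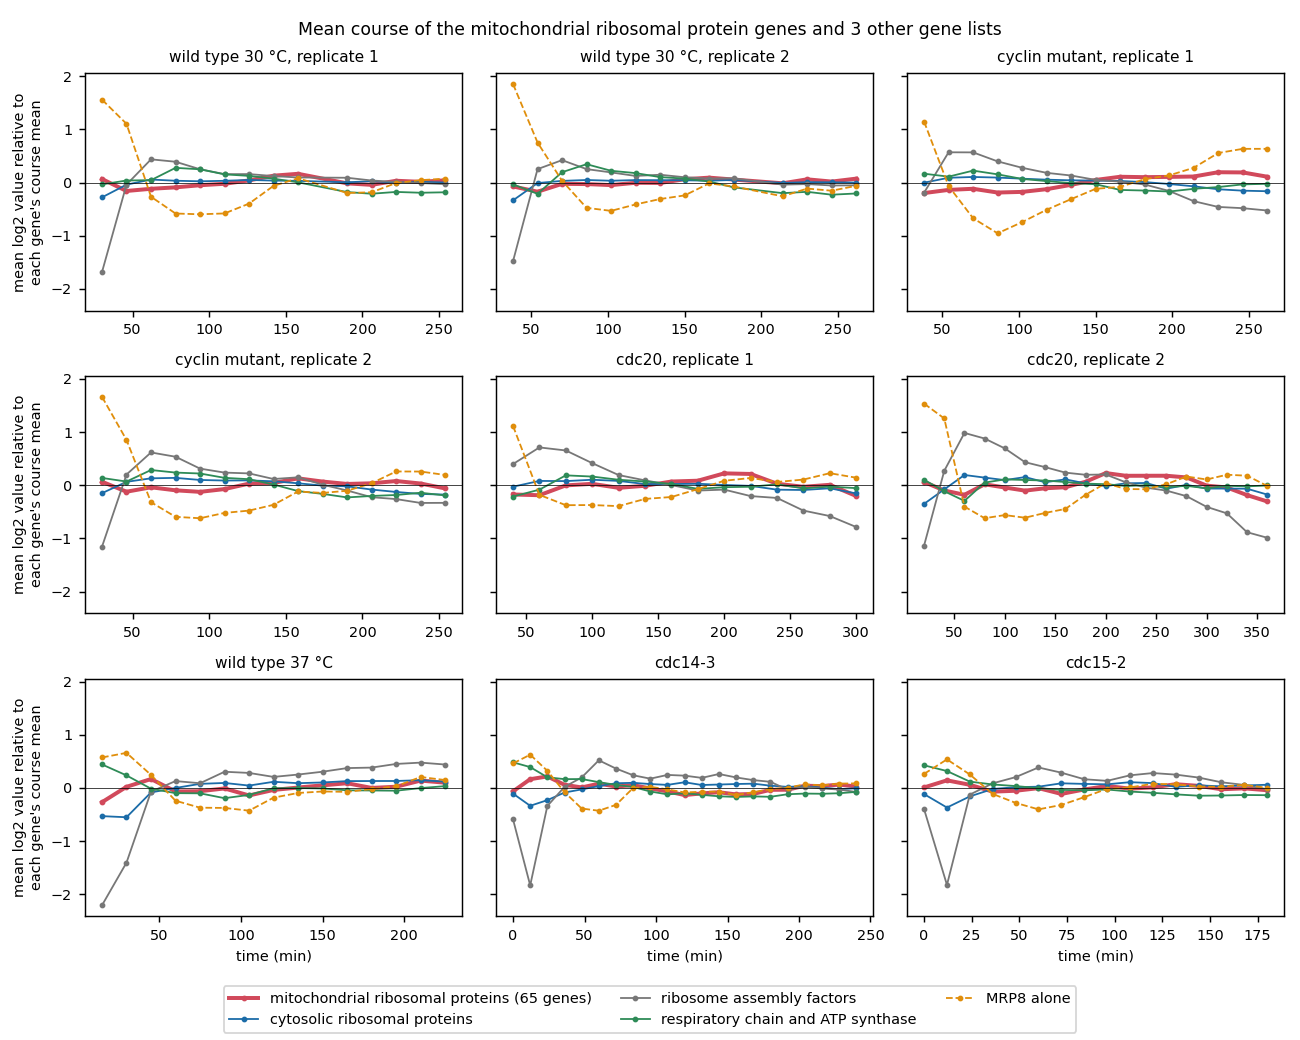
Mean log2 value relative to each gene's course mean (vertical axis) against time (min, horizontal axis) in the 9 courses, for the 65 mitochondrial ribosomal protein genes without MRP8, MRP8 alone, and 3 other lists. The mean of the 65 genes stays between -0.30 and 0.23 in every course, while that of the assembly factors swings by up to 2.68, in 37 °C wild type.

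MRP8 was the exception in all 3 groups at 30 °C. In wild type replicate 1 its values ran from 10.92 at 94 min through a median of 11.40 to 13.08 at 30 min, and in replicate 2 from 10.92 at 102 min through 11.32 to 13.30 at 38 min. The earliest sample was the highest in both courses, and the lowest came between 94 and 102 min. The fitted range was 2.54 (limma adjusted p = 3.2e-11, 28 arrays). The range was 2.52 in the cyclin mutant (adjusted p = 7.6e-15) and 2.42 in cdc20 (adjusted p = 3.3e-12), with the highest fitted values at 30 and 20 min and the lowest at 86 and 100 min. At 37 °C it was smaller, with 1.14 in wild type (adjusted p = 5.8e-05), 1.00 in cdc14-3, just below the minimum range (adjusted p = 1.1e-04), and 0.80 in cdc15-2 (adjusted p = 0.0016). Over the 142 arrays, centred within each course, MRP8 correlated with the mean of the other 65 genes at r = 0.13, the lowest of the 66. It correlated at r = 0.91 with CTT1, the cytosolic catalase, at 0.64 with HSP12, a small stress protein of the plasma membrane, and at -0.62 with NIP7, an assembly factor of the cytosolic ribosome. These partners were picked with the shape of its curve in view, and arrays of a course are not independent.

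In the cdc20 mutant, in which cells stop before anaphase, the 14 called genes differed in when their fitted curves were highest and lowest. Besides MRP8, 8 of the 14 called genes had their highest fitted value at 20 min and their lowest at 360 min: RSM10, RSM18, RSM22, RSM27 and RSM28 of the small subunit and MRPL16, MRPL51 and MRP49 of the large subunit. The other 5, MRPS12, MRP4, MRPL7, MRPL19 and MRPL6, were lowest between 20 and 80 min and highest between 220 and 360 min. The count of 14 fell to 6 without replicate 2, to 8 without the samples before 30 min and to 7 without those after 300 min, all of which come from replicate 2. Replicate 1 covers 40 to 300 min only. The TDH1 3′ to 5′ difference was low at both ends of replicate 2, at 0.79, 1.21 and 1.27 at 20, 40 and 360 min against 3.29 at 200 min. That of ACT1 was high at the start only, at 0.76 and 0.80 at 20 and 40 min, 0.42 at 200 min and 0.34 at 360 min. The part of these in the result was not tested.

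RSM10 (uS10m, a protein of the head of the small subunit) had the largest range after MRP8, at 1.55 (adjusted p = 3.0e-06). Its values in cdc20 replicate 2 ran from 10.59 at 340 min through a median of 11.10 to 12.70 at 20 min, and in replicate 1 from 10.93 at 300 min through 11.19 to 11.45 at 220 min. The highest value came from 1 array, and replicate 1 has no sample that early. RSM18 (bS18m) fell to 10.01 at 360 min from 11.65 at 20 min in replicate 2, and was lowest at the last sample (10.94 at 300 min) in replicate 1 too. Its range was 1.42 (adjusted p = 9.1e-10). RSM22 was lowest in the last sample of both courses as well, at 8.96 and 8.38, and highest in the first, at 9.85 and 9.85, with a range of 1.37 (adjusted p = 5.6e-10). MRPL32 (bL32m), a protein that the m-AAA protease of the inner membrane processes before it joins the ribosome, had the smallest range of the members, at 0.33 (adjusted p = 0.031).

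**Figure D3:**
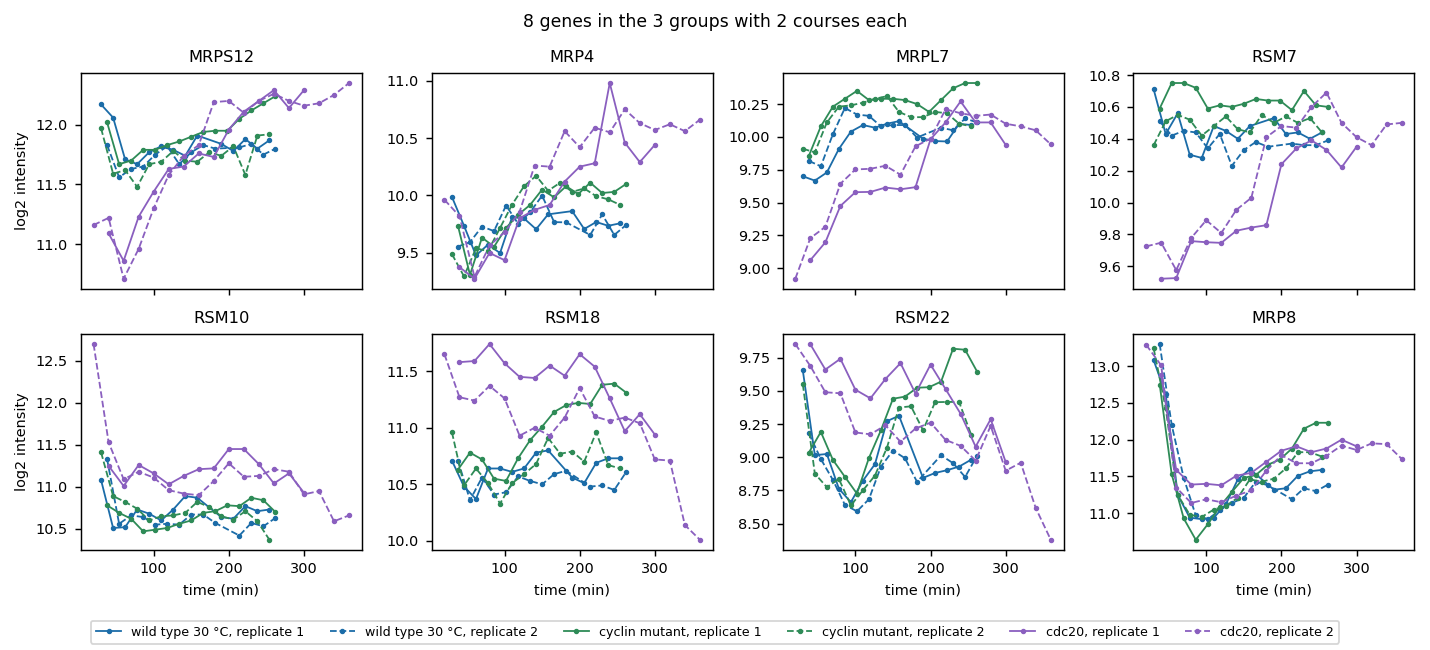
Log2 intensity (vertical axis, own scale per gene) against time (min, horizontal axis) of 8 genes in the 2 courses each of 30 °C wild type, the cyclin mutant and cdc20. MRPS12, MRPL7 and RSM7 start lower in cdc20 than in both other groups, and RSM18 and RSM22 end lower in cdc20 than they began.

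A comparison that treats each course as 1 replicate found members that rose and members that fell. The difference between the mean from 100 min to the end and the mean up to 70 min was tested in all 9 courses together, with 3 residual degrees of freedom. In cdc20 18 members rose and 5 fell, where 23.4% and 24.9% of all genes did, so the share of members that rose was near the background and the share that fell was below it. The 2 courses gave like values across the 66 genes (r = 0.90 across genes, which are not independent replicates), and 53 of 66 had the same sign in both. MRPS12 (uS12m, at the decoding centre) rose by 0.95 and 1.00 in replicates 1 and 2 (mean 0.98 ± 0.11 SE, limma adjusted p = 0.0012). MRP4 (uS2m) rose by 0.84 and 0.74 (adjusted p = 0.0018) and MRPL7 (uL5m) by 0.73 and 0.83 (adjusted p = 0.0016). Those that fell were MRP8, RSM27, RSM22, MRPL16 and MRP10, with means of -0.72, -0.52, -0.49, -0.39 and -0.30. The other 15 that rose did so by 0.31 (RSM25) to 0.66 (MRPL19). The count of 23 was 8 without cdc20 replicate 2 and 14 without replicate 1, which leaves the remaining cdc20 course assumed to vary like the other groups.

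**Figure D4:**
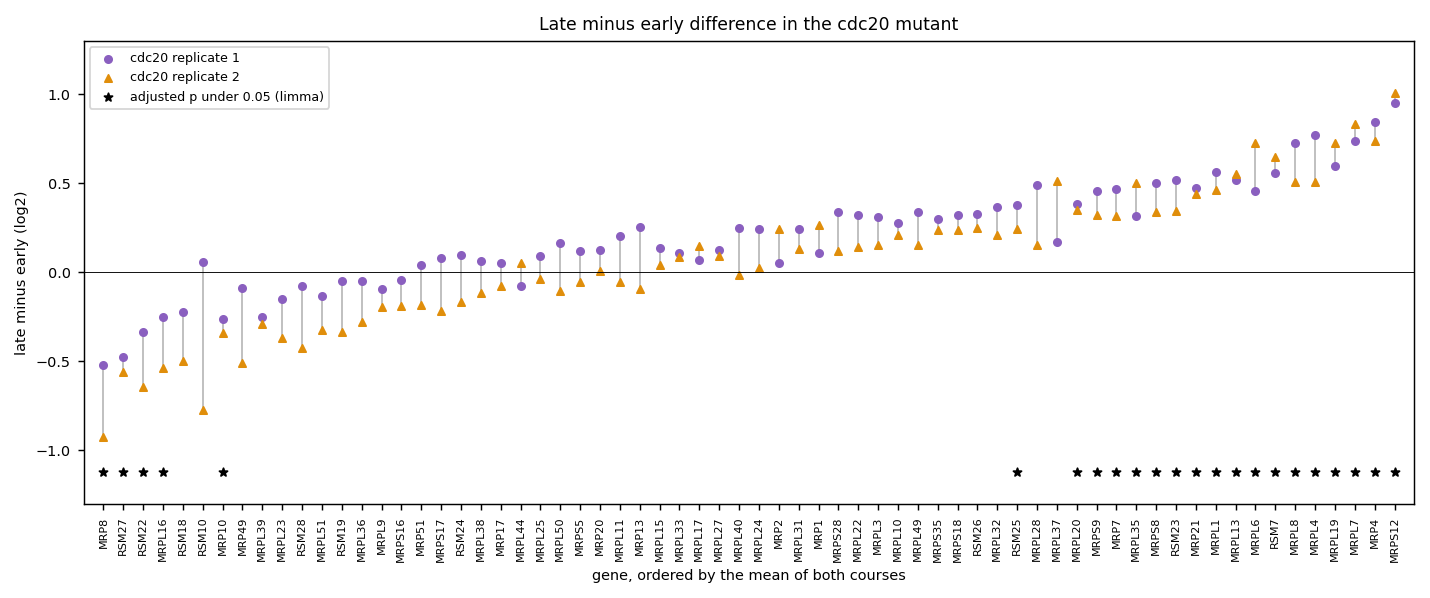
Late minus early difference (log2, vertical axis) of each of the 66 genes in cdc20 replicate 1 (circles) and replicate 2 (triangles), ordered by their mean, with stars for limma adjusted p under 0.05. The courses rank the genes alike, and MRPS12 lies highest and MRP8 lowest.

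MRPS12, RSM7 and MRPL7 began lower in cdc20 than in both other groups at 30 °C. Up to 70 min MRPS12 averaged 10.98 and 11.03 in the cdc20 courses, 11.98 and 11.67 in 30 °C wild type, and 11.80 and 11.72 in the cyclin mutant, so that the courses of cdc20 lay below all 4 others. From 100 min on it averaged 11.93 and 12.04 in cdc20, 11.83 and 11.78 in wild type and 11.98 and 11.76 in the cyclin mutant, where the groups overlapped. RSM7 (uS7m, another protein of the small subunit head) averaged 9.52 and 9.68 early in cdc20 against 10.57 and 10.46 in wild type and 10.70 and 10.47 in the cyclin mutant. It then reached 10.08 and 10.33, still below every course of the other 2 groups. The early level itself, compared between groups after the curves had been seen, was lower in cdc20 than in wild type for these 3 of the 66 genes, by 0.91 ± 0.16 SE for RSM7 (a difference of -0.91, limma adjusted p = 0.014), 0.82 ± 0.17 for MRPS12 (-0.82, adjusted p = 0.020) and 0.64 ± 0.15 for MRPL7 (-0.64, adjusted p = 0.027). It was higher for 25 members, with RSM27 (1.43 ± 0.21, adjusted p = 0.010), MRP2 (1.16 ± 0.28, adjusted p = 0.029) and MRP49 (1.10 ± 0.16, adjusted p = 0.010) in the lead, where 16.8% of all genes were higher and 11.3% lower. Tested directly, the late minus early difference was larger in cdc20 than in 30 °C wild type for 4 members and smaller for none, where 6.50% of all genes were larger and 6.55% smaller. They were MRPS12 (by 1.00 ± 0.16 SE, limma adjusted p = 0.018), RSM7 (by 0.71 ± 0.14, adjusted p = 0.026), MRP4 (by 0.68 ± 0.15, adjusted p = 0.033) and MRPL4 (uL29m, by 0.62 ± 0.15, adjusted p = 0.046). Against the cyclin mutant 3 members were larger and 2 smaller, where 7.71% and 6.02% of all genes were. MRPS12 was larger by 0.87 ± 0.16 (adjusted p = 0.019), RSM7 by 0.63 ± 0.14 (adjusted p = 0.033) and MRPL7 by 0.55 ± 0.14 (adjusted p = 0.049), and MRPL16 and RSM22 differed by -0.75 ± 0.17 (adjusted p = 0.034) and -0.74 ± 0.17 (adjusted p = 0.038). Both comparisons use the same cdc20 courses. The count of 4 was 0 without either wild type course or without cdc20 replicate 1 and 2 without cdc20 replicate 2. The count of 5 was 0 without either cyclin mutant course or without cdc20 replicate 2, 1 without either wild type course and 3 without cdc20 replicate 1. Both counts were also 0 with a late window of 100 to 180 min.

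Of other genes of mitochondrial translation several rose in cdc20, where 23.4% of all genes rose and 24.9% fell. Of 12 genes of translation factors and related proteins, the latter including OXA1, MBA1 and PUF3, 8 rose from early to late and none fell. The median over the list was 0.64. TUF1, the mitochondrial elongation factor Tu, rose by 1.79 ± 0.11 SE (limma adjusted p = 2.7e-04), OXA1, the insertase of the inner membrane, by 1.72 ± 0.14 (adjusted p = 5.3e-04) and MEF2, a paralogue of elongation factor G, by 1.60 ± 0.14 (adjusted p = 6.0e-04). Of 13 mitochondrial tRNA synthetase genes 7 rose and none fell, and of 13 other mitochondrial ribosome proteins, whose symbols do not follow the rule, 6 rose and none fell. Of the 54 cytosolic assembly factors 1 rose and 19 fell. No such counts are given here for 14 translational activators and 11 genes of mitochondrial ribosome assembly and rRNA synthesis. The mean of the activators was highest at 240 min in cdc20 replicate 1 and at 20 min in replicate 2, and lowest at 40 and 340 min. That of the 11 genes was highest at 240 and 260 min and lowest at 60 and 360 min.

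Fewer members moved in the other groups at 30 °C. In wild type 6 rose from early to late and 1 fell, against 13.2% and 14.5% of all genes. MRPS8 (uS8m) rose by 0.66 and 0.32 in replicates 1 and 2 (mean 0.49 ± 0.13 SE, adjusted p = 0.030) and MRP21 (bS21m) by 0.47 and 0.40 (adjusted p = 0.025), and MRP8 fell by 0.94 and 1.10 (mean -1.02 ± 0.19, adjusted p = 0.011). The others that rose were MRPL33, MRPL20, MRP2 and MRPS28. Without either wild type course the count of 7 was 0. By fitted range RSM22 (0.81) and MRPL15 (0.75) followed MRP8 in this group, and MRPL6 (uL6m) had the smallest, at 0.12 (adjusted p = 0.67). RSM22 was high in the first sample, at 9.65 and 9.18, and low at 94 and 102 min, at 8.66 and 8.59.

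In the cyclin mutant 2 members rose from early to late and none fell, against 12.5% and 11.6% of all genes. They were MRP4 (by 0.43 and 0.59, mean 0.51 ± 0.10 SE, limma adjusted p = 0.016) and MRPL49 (bL21m, by 0.52 and 0.34, adjusted p = 0.033). The count was 0 without either cyclin mutant course and 1 without either wild type course. RSM19 (uS19m) was the only member besides MRP8 with a fitted range of at least 1 there, 1.04 (adjusted p = 3.3e-13). It was lowest at 102 and 78 min, at 9.79 and 9.43, and highest at 246 and 254 min, at 10.94 and 10.49. MRPL16 (uL16m) followed with 0.82 (adjusted p = 7.3e-14), and was lowest at 86 and 78 min. MRPL39 (bL33m) had the smallest range, 0.11 (adjusted p = 0.75). The count of 2 genes was 1 without replicate 1 and 3 without replicate 2.

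In the cells released from alpha-factor at 37 °C MRP20, MRPL4 and MRP8 had the widest ranges in both courses. MRP20 (uL23m) and MRPL4 (uL29m), which in other ribosomes sit side by side at the exit of the peptide tunnel, had ranges of 0.83 and 0.66 in cdc14-3 (adjusted p = 2.2e-06 and 2.2e-06) and of 0.95 and 0.81 in cdc15-2 (adjusted p = 3.5e-04 and 0.0048), all below the minimum range. MRP20 went from 9.67 at the release to 8.86 at 192 min in cdc14-3 and from 9.64 to 8.70 at 180 min in cdc15-2. MRPL4 went from 10.11 to 9.28 at 120 min in cdc14-3 and from 9.78 to 8.90 at 120 min in cdc15-2. In both strains the first sample was at or near the highest. MRPL39 in cdc14-3 (0.17) and MRP49 in cdc15-2 (0.11) varied least. As a set, 57 of 65 genes were higher at 24 than at 0 min in cdc14-3, with a median of 0.31, and 64 of 65 were lower at 120 than at 24 min, with a median of -0.35. Of all 5449 genes 3211 were higher over the first of these steps and 2941 lower over the second. In cdc15-2 57 of 65 were lower at 72 than at 12 min, with a median of -0.28, against 2680 of all 5449 genes. Apart from 0 min, these are the times at which the members' own mean was highest or lowest. They were picked after the curves were seen, single arrays are compared, and no test was made of the steps. Assembly factors of the cytosolic ribosome were lowest at 12 min in both courses, when the members were at or near their highest mean. No late minus early difference was called in either strain, where 1.34% and 0.587% of all genes were, and at an unadjusted p of 0.05 4 and 2 members passed, against 12.4% and 9.93% of all genes. The largest were MRPL44 in cdc14-3 (-0.55 ± 0.16 SE, limma adjusted p = 0.25) and MRP20 in cdc15-2 (-0.46 ± 0.14, adjusted p = 0.34). Each of these groups has 1 course, which is assumed to vary like the groups with 2.

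In 37 °C wild type MRPL20 (mL58) and MRP4 passed with ranges of 1.03 (adjusted p = 0.0057) and 1.02 (adjusted p = 1.7e-04). MRPL20 rose from 10.59 in the first sample, at 15 min, to 11.91 at 90 min. MRP4 rose from 9.94 at 15 min to 11.17 at 60 min and was lowest, at 9.84, in the last sample. MRPL23 (uL13m) varied least, with 0.17 (adjusted p = 0.57). In this course 63 of 65 members were higher at 45 than at 15 min, with a median of 0.45, against 2951 of all 5449 genes. The members' own mean was lowest at 15 and highest at 45 min. These times were picked after the curve was seen, single arrays are compared, and no test was made of the step. The TDH1 3′ to 5′ difference of the course was lowest at 15 min too (0.98), that of ACT1 was highest then (0.67), and their part was not tested. No late minus early difference was called, where 8.59% of all genes were, and 4 members passed at an unadjusted p of 0.05, against 30.0% of all genes. The largest was MRPL32 (0.45 ± 0.16 SE, limma adjusted p = 0.11).

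The largest shift of the set as a whole was in its level in 37 °C wild type cells against 30 °C wild type cells. Over the samples from 100 min on, the members' median was 11.27 at 37 °C and 10.22 and 10.11 in the 2 courses at 30 °C. The course at 37 °C lay above both courses at 30 °C for 65 of 66 genes, and for 50 of them every array at 37 °C lay above every array at 30 °C. Neither count was made over all genes, so no background share stands beside them. In the fit over courses 61 of 66 were higher and none lower, where 29.1% of all genes were higher and 22.3% lower. The median difference was 1.08, or 2.11-fold, against 0.07 for all genes, and was alike for the large subunit (1.09, 34 of 37 higher) and the small subunit (1.01, 26 of 28 higher). Relative to the median of all genes 57 were called. Intensities are relative within an array, and in such bulk samples fewer cells with a transcript and less of it per cell cannot be told apart. The difference was present from the start: over samples up to 70 min 47 members were higher, against 15.1% of all genes, with a median of 1.08. Without wild type 30 °C replicate 1 or 2 the count was 56 and 52.

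MRP49 (mL61) showed the largest difference. It averaged 11.91 at 37 °C and 10.18 and 10.11 at 30 °C, a difference of 1.76 ± 0.15 SE (limma adjusted p = 2.9e-04), and its lowest array at 37 °C (11.76) exceeded its highest at 30 °C (10.65). MRPS8 averaged 11.51 against 9.81 and 9.71 (1.75 ± 0.24, adjusted p = 0.0012). MRPL50 (bL9m) averaged 11.94 against 10.32 and 10.11 (1.72 ± 0.19, adjusted p = 5.7e-04). The 5 genes that did not pass were MRP20 (-0.31), MRPL35 (0.10), RSM23 (0.23), RSM7 (0.28) and MRPL11 (0.36). MRP8 was higher by 1.45 ± 0.14 (adjusted p = 3.6e-04). MRP20 was the only member with a lower value at 37 °C, 8.91 against 9.25 and 9.20.

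**Figure D5:**
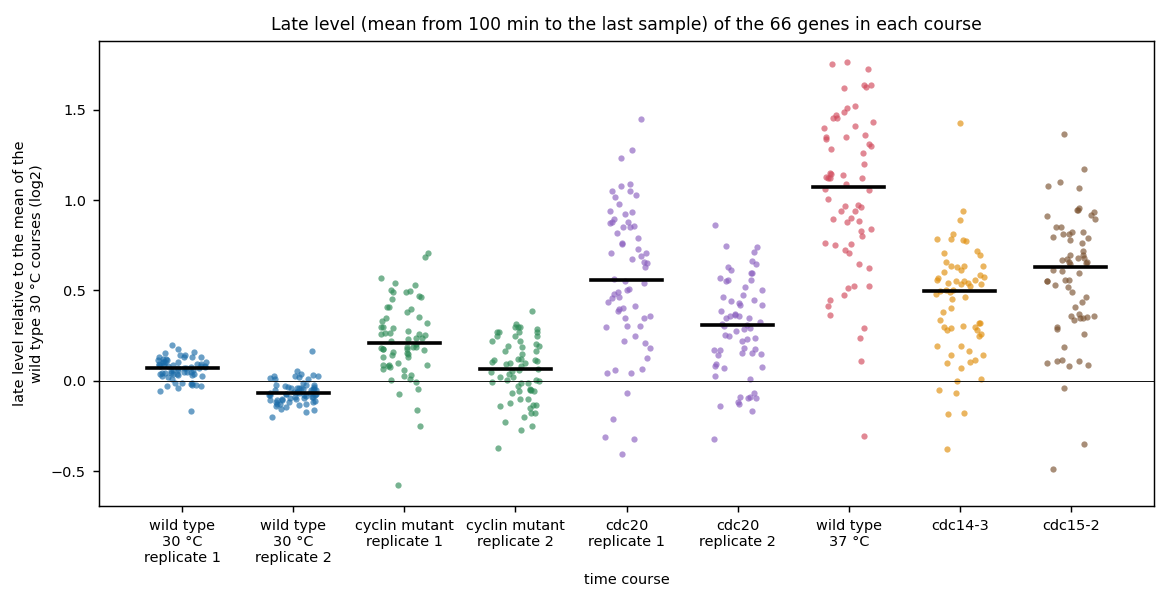
Late level (mean log2 value from 100 min on) of each of the 66 genes in each of the 9 courses, relative to the gene's mean over both 30 °C courses of wild type (vertical axis), with points for genes and bars for their medians. The 37 °C wild type course lies highest, the 2 mutants at 37 °C and the 2 cdc20 courses lie between, and the cyclin mutant lies near 30 °C wild type.

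Proteins with particular roles shared this difference. MRP7 (bL27m), whose bacterial relative reaches the peptidyl transferase centre, was higher by 0.75 (adjusted p = 0.0054), MRPL10 (uL15m) by 0.72 (0.0090), MRPL16 by 0.97 (0.0028), MRPL6 by 1.12 (5.5e-04), MRPL7 by 0.45 (0.023), MRPL32 by 1.12 (0.0046) and MRPL36 (bL31m) by 1.62 (4.7e-04), each with limma's adjusted p in brackets. In the small subunit the difference was 0.65 for MRP4 (adjusted p = 0.0080), 0.75 for MRPS12 (0.0041), 1.14 for MRPS5 (uS5m, 0.0019), 1.25 for MRPS28 (uS15m, 0.0029) and 1.31 for RSM18 (0.0030). MRP51 (bS1m), which acts with the leaders of mitochondrial mRNAs, was higher by 0.84 (adjusted p = 0.015). MRP1 and RSM26, which both resemble manganese superoxide dismutase, were higher by 1.14 (adjusted p = 0.0014) and 1.47 (5.8e-04). RSM22 was higher by 0.88 (adjusted p = 0.0065) and RSM24 (mS35) by 0.62 (0.011), while RSM23, the relative of the GTP-binding protein DAP3, did not pass (adjusted p = 0.19).

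The rest of the mitochondrial translation system was divided. In the same comparison, where 29.1% of all genes were higher and 22.3% lower, 10 of 13 other mitochondrial ribosome proteins were higher and none lower, led by PET123 (1.75 ± 0.22 SE, limma adjusted p = 8.6e-04) and MRX14 (1.69 ± 0.17, adjusted p = 4.5e-04). Of the 12 genes of translation factors and related proteins 7 were higher and 2 lower. PUF3, an RNA-binding protein and not a translation factor, had the largest difference, 2.90 ± 0.33 (adjusted p = 6.2e-04). The initiation factors AIM23 and IFM1 were higher by 1.41 and 1.34, while OXA1 and FMT1, the formyltransferase of the initiator tRNA, were lower, at -1.20 and -0.98. Of 13 tRNA synthetases 7 were higher and 1, NAM2, was lower. Of 11 genes of mitochondrial ribosome assembly and rRNA synthesis 5 were higher and 3 lower, and of 14 translational activators 5 and 3. Cytosolic ribosomal proteins had a median difference of -0.08, with 1 of 128 higher and 7 lower, the respiratory chain and ATP synthase a median of 0.03, with 4 of 37 higher and 7 lower, and cytosolic assembly factors a median of -0.82, with none of 54 higher and 43 lower. The TDH1 3′ to 5′ difference averaged 1.5 ± 0.22 (SD, 15 arrays) at 37 °C and 2.15 ± 0.28 and 1.89 ± 0.17 (SD, 14 arrays each) at 30 °C. That of ACT1 averaged 0.51 ± 0.07 at 37 °C and 0.41 ± 0.14 and 0.43 ± 0.08 at 30 °C over the same arrays, the other way round. The part of these in the difference was not tested. Sorbitol, preculture temperature, RNA method and array series differ between these groups as well.

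Late levels in cdc20 lay above those of wild type at the same temperature and in the same medium. The members' medians were 10.78 and 10.45 in cdc20. Of 66 members 35 were higher and 1 lower, where 26.0% of all genes were higher and 16.3% lower (42.3% in all), with a median of 0.44. Both cdc20 courses lay above both wild type courses for 52 members and below both for 5. These overlap counts were not made over all genes and are descriptions only. MRPL24 (bL28m) averaged 10.21 and 9.50 in cdc20 against 8.89 and 8.63 (1.10 ± 0.22 SE, limma adjusted p = 0.0076). RSM27 (mS33) averaged 11.55 and 11.14 against 10.38 and 10.17 (1.07 ± 0.18, adjusted p = 0.0043), and MRP2 (uS14m) 11.92 and 11.28 against 10.73 and 10.64 (0.92 ± 0.23, adjusted p = 0.018). The gap between the cdc20 courses themselves, a median of 0.30 with replicate 1 the higher, was wider than that in wild type (0.14) or the cyclin mutant (0.19). The member that was lower was MRP20 (-0.36 ± 0.12, adjusted p = 0.045), and its late values of 8.82 and 8.90 lay below the 9.25 and 9.20 of wild type. The count of 36 was 15 and 5 without wild type replicates 1 and 2, and 19 without cdc20 replicate 1. TDH1 3′ to 5′ differences averaged 2.98 and 2.59 in cdc20 and those of ACT1 0.51 and 0.48, all above both wild type courses, and their part in the result was not tested.

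Among the members with particular roles, some were higher late than in wild type, some rose within the course and a few did both. MRPL36, RSM26 and MRPL50 were higher than in wild type by 0.91, 0.79 and 0.74 (limma adjusted p = 0.0028, 0.0041 and 0.0091), and from early to late in cdc20 they differed by -0.16, 0.29 and 0.03 (adjusted p = 0.25, 0.11 and 0.87). MRPL32, MRPS5, MRPS28, MRP51 and RSM24 were likewise higher late, by 0.40 to 0.67, with no change within the course that passed the test. MRPS12, MRPL7, MRP7 and RSM23 rose within the course by 0.98, 0.78, 0.39 and 0.43, and their late levels differed from wild type by 0.18, -0.15, 0.04 and -0.04, none of which passed (adjusted p = 0.24, 0.28, 0.81 and 0.80). MRPL6 and MRP4 did both, with 0.59 and 0.79 within the course and 0.38 and 0.51 against wild type. MRPL16 was higher late than in wild type by 0.59 (adjusted p = 0.013) although it fell by 0.39 within the course, and RSM22 fell by 0.49 while its late level differed by 0.29 (adjusted p = 0.16). MRPL10, MRP1 and RSM18 passed in neither comparison.

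Against the cyclin mutant 19 members were higher in cdc20 and 4 lower, where 25.4% and 19.9% of all genes were, so that the share of members higher was near the background and the share lower was below it. MRPL24 (1.10 ± 0.22 SE, limma adjusted p = 0.0066), RSM27 (1.01 ± 0.18, adjusted p = 0.0044) and MRPL33 (uL30m, 0.89 ± 0.17, adjusted p = 0.0056) led, and MRP20, MRPL28, RSM7 and MRPL7 were lower, by 0.33 to 0.42. The count of 23 was 12 without cyclin mutant replicate 2, 15 without cdc20 replicate 1 and 36 without cdc20 replicate 2. Between the cyclin mutant and 30 °C wild type none of the 66 was called, where 8.72% of all genes were higher and 6.63% lower (15.3% in all). Of the 66, 55 had a higher value in the mutant, with a median of 0.12. This count has no share of all genes with that sign beside it and is a description only. At an unadjusted p of 0.05 7 members passed, against 31.8% of all genes. The largest was RSM19, with 10.47 and 10.17 against 9.94 and 9.63 (0.54 ± 0.18, adjusted p = 0.091, interval 0.11 to 0.96). The count of 0 was 5 without either cdc20 course and 1 without cyclin mutant replicate 2.

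Within the cultures at 37 °C the mutants lay below wild type. The members' late medians were 10.57 in cdc14-3 and 10.71 in cdc15-2, against 11.27. In cdc14-3 13 members were lower and none higher, where 3.27% of all genes were lower and 3.84% higher (7.10% in all), with a median of -0.63 and 63 of 66 values below 0. Of the 13, 11 belong to the large subunit and 2, MRPS16 and RSM26, to the small. The 3 members above 0 were MRP4, MRP20 and MRPL4. MRPL31 (mL60) averaged 10.35 against 11.79 (-1.44 ± 0.29 SE, limma adjusted p = 0.034), MRPL20 10.29 against 11.61 (-1.32 ± 0.22, adjusted p = 0.020) and MRPL44 (mL53) 10.33 against 11.63 (-1.29 ± 0.29, adjusted p = 0.045). In cdc15-2 none was called, where 1.71% of all genes were higher and 2.24% lower (3.95% in all), although 64 of 66 values were below 0, with a median of -0.42 and 28 at an unadjusted p of 0.05, against 24.4% of all genes. The largest was again MRPL31 (-1.15 ± 0.29, adjusted p = 0.072). The 2 mutants differed in none of the 66 (0.0918% of all genes were higher in cdc14-3 and 0.0918% lower, 0.184% in all), with a median of -0.16 and 3 at an unadjusted p of 0.05 (11.7% of all genes), of which MRPL20 was the largest (-0.59 ± 0.22, adjusted p = 0.36, interval -1.11 to -0.07). These contrasts set single courses against each other and take their spread from the other groups. The counts of values below 0 have no share of all genes with that sign beside them and are descriptions only. The count of 13 was 1 without either 30 °C wild type course and 35 without either cdc20 course, and that of 0 for cdc15-2 was 16 without either cdc20 course. Over samples up to 70 min no member differed between cdc14-3 and 37 °C wild type by limma's test, where 0.679% of all genes did, and 20 members passed at an unadjusted p of 0.05, against 18.5% of all genes. The members' median up to 70 min was already lower in the mutants, at 10.7 in cdc14-3 and 10.81 in cdc15-2, against 11.26 in 37 °C wild type. Method of synchrony and RNA preparation differ between the wild type course and the mutants and cannot be told apart from the genotype. TDH1 3′ to 5′ differences averaged 1.5 ± 0.22 in wild type, 1.00 ± 0.28 in cdc14-3 and 1.97 ± 0.74 in cdc15-2, and those of ACT1 0.51, 0.46 and 0.49.

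In the remaining comparisons of late minus early differences between groups no member was called. For the cyclin mutant against 30 °C wild type 2.81% of all genes were larger and 2.39% smaller by limma's test (5.19% in all), and 2 members passed at an unadjusted p of 0.05, against 25.8% of all genes. For 37 °C wild type against 30 °C wild type the share was 0.569%, with 1 member and 18.5% of all genes at an unadjusted p of 0.05. For cdc14-3 and cdc15-2 against 37 °C wild type the shares were 0.0551% and 0.128%, with 3 and 1 members and 10.1% and 8.44% of all genes at an unadjusted p of 0.05, and between the mutants no gene passed (0%), with 0 members and 0.899% of all genes at an unadjusted p of 0.05. MRPL44 had the largest difference in both comparisons of the mutants with 37 °C wild type (-0.69 and -0.58, limma adjusted p = 0.39 and 0.55), MRP8 in both comparisons with 30 °C wild type (0.56 for the cyclin mutant and 0.65 for 37 °C wild type, adjusted p = 0.25 and 0.34), and MRP7 between the mutants (-0.33, adjusted p = 1.00).

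Members varied together only loosely. Over the 142 arrays, with each gene centred within its course, the 2080 pairs of the 65 genes without MRP8 had a median correlation of 0.38, and 1823 of them were above 0. Pairs within the large subunit (median 0.39), within the small subunit (0.36) and across subunits (0.38) were alike. The genes most like the mean of the others were MRPL11 (uL10m, r = 0.83), MRPL31 (0.83) and MRPL27 (mL41, 0.82). The least like it after MRP8 were MRPL35 (mL38, 0.21), MRPL4 (0.22), RSM27 (0.25) and RSM7 (0.26). The closest pair was MRPL1 with MRPL8 (r = 0.86), and MRPS12 was closest to MRP4 (0.80). These arrays share courses, scanning series and RNA quality, so the correlations are descriptions. MRP8, RSM10, RSM28, MRP10, MRP49, RSM19, RSM27 and RSM7 had a late minus early difference of opposite sign to the members' median in at least 4 of the 6 groups, and 6 of these 8 are small subunit genes.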

How the data were processed

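The authors deposited 1 table of intensities for the 142 Affymetrix arrays, made with the affy package per the submitters' processing notes, whose version was not stated. The values, taken for log2 when the tests were planned, ran from 22.18 to 35171 and were linear deposited intensities, so log2 was taken here with a pseudocount of 0. Of 5900 probe sets 5498 were named for 1 gene through GEO's platform annotation and the RefSeq gene table, and the probe set with the highest mean was kept for each of 5449 genes. The 14 columns of wild type 30 °C replicate 2 were moved up 1 row, a shift that rests on the values (r = 0.0494 at the best other move up to 10 rows) and on no label. Splines (5 degrees of freedom), cosine fits (periods of 60 to 140 min in steps of 5, chosen by 37 cell cycle genes; 140 min, the upper edge, was chosen for 3 groups) and course means (3 residual degrees of freedom) were fitted with limma 3.58.1 in R 4.3.3 and Benjamini-Hochberg adjustment over all 5449 genes, and tested on simulated data. Figures were drawn with matplotlib 3.10.9. The number of arrays limits the precision.

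The members, the gene lists and the tests were chosen with earlier results of these data known. Genes named in the text were, for each measure and contrast, those past the threshold with the largest differences, the smallest range in each group, members with roles listed from textbook knowledge and members whose late minus early difference opposed the median in at least 4 groups. Where a gene or time was picked otherwise, the text says so. Alternatives covered quantile normalization, low genes left out, other windows, spline degrees, minimum ranges, a replicate block and each replicate left out. MRP35, which matches the rule in the RefSeq table, was not analysed here.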

Additional observations from a re-analysis of the deposited data

Results flagged for a closer look

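Differences in the late minus early change between cdc20 and the other groups at 30 °C passed limma's test of the difference itself for 7 members. Against wild type, cdc20 exceeded by 1.00 for MRPS12, 0.71 for RSM7, 0.68 for MRP4 and 0.62 for MRPL4 on the log2 scale. Against the cyclin mutant, cdc20 exceeded by 0.87 for MRPS12, 0.63 for RSM7 and 0.55 for MRPL7, and differed by -0.74 for RSM22 and -0.75 for MRPL16. By course, RSM22 changed by -0.34 and -0.64 in cdc20 and by 0.36 and 0.14 in the cyclin mutant, and MRPL16 by -0.25 and -0.54 against 0.42 and 0.28, so that the courses of each group did not overlap. RSM7 changed by 0.56 and 0.64 in cdc20 and by -0.12 to 0.03 in the 4 courses of the other groups. The early windows of cdc20 hold 2 and 3 arrays. Against wild type these are 4 of 66 members larger, where 6.50% of all genes were larger and 6.55% smaller, and against the cyclin mutant 3 larger and 2 smaller, where 7.71% and 6.02% were. The count against wild type was 0 without either wild type course or without cdc20 replicate 1, and that against the cyclin mutant was 0 without either cyclin mutant course or without cdc20 replicate 2.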

How the results depend on the processing

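Under the alternatives run, 315 counts of called members stayed within 1.5 times the count reported and 84 did not, and of the values for single genes 488 kept direction and side of the threshold, 79 no longer passed, 9 newly passed and 1 reversed. Except where a value or the construction of the alternative shows it, the cause was not tested. With the columns of wild type 30 °C replicate 2 as deposited, MRPL24 turned to -1.71 for late cdc20 against wild type, and the counts were 0 for the late level of 37 °C wild type and of cdc20 against 30 °C wild type, of cdc20 against the cyclin mutant and of cdc14-3 against 37 °C wild type. They were also 0 for the late minus early difference of 30 °C wild type, of the cyclin mutant and of cdc20 against either, 9 within cdc20, 3 for change over time and 0 for the periodic test in 30 °C wild type.

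A minimum range of 1.5-fold called 7, 23, 11, 48, 6 and 7 members in 30 °C wild type, 37 °C wild type, the cyclin mutant, cdc20, cdc14-3 and cdc15-2, and no minimum 49, 39, 59, 66, 44 and 37. Within cdc20, 8 changed without samples before 30 min and 7 without those after 300 min. Quantile normalization gave 1 changing member in cdc14-3 and 1 in cdc15-2, 2 for the late level of cdc15-2 against 37 °C wild type and 4 for the cyclin mutant's late minus early difference. For the late level of cdc14-3 against 37 °C wild type a window of 100 to 180 min gave 5, the window up to 70 min 0 and limma's trend and robust settings 20. For cdc15-2 those settings gave 7 and a window from 150 min 8. For the cyclin mutant against 30 °C wild type the count was 3 from 150 min, and 1 with the genes of lowest mean left out, with the trend and robust settings or centred on all genes. Late minus early counts for cdc20 against wild type and the cyclin mutant were 0 and 0 with a late window of 100 to 180 min and 9 and 9 with an early window of 30 to 70 min, and within the cyclin mutant 5 from 150 min and 8 with that early window. The window up to 70 min, the centring and the removal of samples after 300 min were chosen after seeing the data.

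The labels do not say that replicate numbers pair the courses. Deviations of same-numbered courses correlated at -0.03, 0.05 and 0.08 for the late level. For the late minus early difference they correlated at -0.11 and 0.01 for wild type with the cyclin mutant and with cdc20, and at 0.54 for the cyclin mutant with cdc20, so the courses were not treated as paired. A replicate block gave 5 members for the late minus early difference of cdc20 against the cyclin mutant, as without it, and 3 for cdc20 against wild type. It gave 60 for 37 °C wild type against 30 °C, 1 for the cyclin mutant against wild type, 2 for cdc15-2 against 37 °C wild type and 5 for the cyclin mutant's late minus early difference.

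Leaving out 1 replicate at a time gave 0 to 0 for the periodic test in 30 °C wild type, and 1 to 3 and 6 to 19 for change over time in the cyclin mutant and cdc20. For the late level the ranges were 52 to 61 for 37 °C wild type against 30 °C, 5 to 45 and 12 to 36 for cdc20 against wild type and the cyclin mutant, 0 to 5 for the cyclin mutant against wild type, 1 to 35 for cdc14-3 and 0 to 16 for cdc15-2. For late minus early they were 0 to 7, 0 to 2 and 8 to 21 within 30 °C wild type, the cyclin mutant and cdc20, and 0 to 3 and 0 to 3 for cdc20 against the other groups. A remaining single course is assumed to vary like the other groups. Signal over background was not used here, so the limit for dim probe sets is not known.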

Other observations

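In bacteria the genes for ribosomal proteins S12 and S7 and for elongation factors G and Tu lie in one operon. The yeast genes for the mitochondrial relatives of these proteins, picked here after their values had been seen, all rose from early to late in cdc20 (limma, adjusted p over all genes). MRPS12 rose by 0.98 and RSM7 by 0.60, and TUF1 rose by 1.79, MEF1 by 0.42 and MEF2 by 1.60. Over the 142 arrays centred by course RSM7 was most like MRPS12 among the members (r = 0.79), as a description.

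Of the 66 members 38 had their lowest fitted value at the last time, 360 min, in cdc20, where 31.4% of all genes did. Samples after 300 min come from cdc20 replicate 2 alone, and without them the count of changing members was 7 in place of 14. In 37 °C wild type 39 had their highest fitted value at the last time, 225 min, where 17.9% of all genes did.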
